A study of Mus musculus with 2 samples.

Results

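Chromatin around 9 genes for transcription factors best known from the forebrain was examined in mouse embryonic hindbrain by DNase-seq. The genes were Emx1, Emx2, Dmrta2, Tbr1, Dlx1, Dlx2, Dlx5, Dlx6 and Six3, taken by name from the 21851 protein-coding genes of the annotation. DNase-seq maps open chromatin by the places where the enzyme DNase I can cut the DNA of isolated nuclei. The series holds 1 group only, hindbrain tissue of healthy B6NCrl embryos at embryonic day 11.5, with male and female embryos pooled, in 2 libraries labelled as biological replicates. Both libraries carry the same donor label, and nothing in the labels says how many embryos went into each. There is no second condition or tissue and no read count in the files, so depth is unknown, no test was made, and the spread is given as the values of both libraries.

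Each library has a list of peaks, 150 bp wide with a height of the authors' making that never passed 150, and a list of hotspots, the broader stretches of raised cutting. The lists differ in size: replicate 1 had 150176 analysed peaks with a median height of 36 and replicate 2 had 194873 with a median of 50, while hotspots covered 44.7 Mb and 73.7 Mb. Hotspots wider than 2 kb numbered 922 in replicate 1 and 5547 in replicate 2, a gap that moves with many of the values below, and its part in them was not tested. Peaks of both libraries that overlapped were merged into 1 site, called shared if it held a peak of each. A site within 1 kb of a protein-coding start is called a promoter site here, and a site farther away, up to 100 kb from the nearest such start, a distal site of that gene. Values are given for replicate 1 and then replicate 2.

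Emx1, Emx2, Dmrta2 and Tbr1 act in the dorsal telencephalon, where the cerebral cortex forms. The Dlx genes encode homeodomain proteins that lie in pairs, Dlx1 beside Dlx2 and Dlx5 beside Dlx6, and direct the GABAergic neurons of the ventral forebrain. They also pattern the branchial arches, and Dlx5 and Dlx6 the limbs. Six3 encodes a homeodomain protein of the most anterior neural plate and the eye, which represses Wnt genes. Several of these factors are not confined to the forebrain, Tbr1 being also a marker of neurons of the deep cerebellar nuclei, which arise from the hindbrain. Open DNA at a start does not show that the gene is transcribed, and CpG-rich starts are open in many tissues. In a whole tissue, fewer cells with open chromatin and less open chromatin per cell cannot be told apart.

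The start regions are shown first by the sequence of 1 promoter site for each gene. It was chosen as the highest one in replicate 2 outside annotated exons of protein-coding genes, shared sites before others. At Six3 another site, in an intron, had the same height as the one shown. All letters were read from the RefSeq GRCm38 genome on the + strand (build mm10), 5′ to 3′, and CG dinucleotides are in capitals.
Emx1 chr6:85186756-85186905: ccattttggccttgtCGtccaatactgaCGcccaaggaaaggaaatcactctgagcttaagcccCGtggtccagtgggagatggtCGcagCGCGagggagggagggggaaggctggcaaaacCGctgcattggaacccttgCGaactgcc
Emx2 chr19:59458076-59458305: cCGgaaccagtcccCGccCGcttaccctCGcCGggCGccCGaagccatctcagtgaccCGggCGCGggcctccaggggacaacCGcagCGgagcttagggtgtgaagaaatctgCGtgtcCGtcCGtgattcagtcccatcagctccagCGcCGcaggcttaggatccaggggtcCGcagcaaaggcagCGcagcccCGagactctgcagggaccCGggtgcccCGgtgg
Dmrta2 chr4:109977856-109978005: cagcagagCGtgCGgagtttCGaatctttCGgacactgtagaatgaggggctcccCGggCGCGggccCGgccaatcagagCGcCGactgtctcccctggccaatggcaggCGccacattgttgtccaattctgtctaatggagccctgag
Tbr1 chr2:61805616-61805785: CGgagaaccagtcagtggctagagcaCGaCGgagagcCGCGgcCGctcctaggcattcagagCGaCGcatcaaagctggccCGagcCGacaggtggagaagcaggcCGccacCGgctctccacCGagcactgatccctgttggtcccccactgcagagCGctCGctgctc
Dlx1 chr2:71527496-71527645: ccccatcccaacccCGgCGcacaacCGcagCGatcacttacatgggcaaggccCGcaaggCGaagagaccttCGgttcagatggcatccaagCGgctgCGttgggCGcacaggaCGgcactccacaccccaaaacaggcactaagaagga
Dlx2 chr2:71546756-71546905: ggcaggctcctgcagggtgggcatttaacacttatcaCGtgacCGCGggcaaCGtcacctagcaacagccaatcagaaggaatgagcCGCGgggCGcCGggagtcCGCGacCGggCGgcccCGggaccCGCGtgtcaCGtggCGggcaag
Dlx5 chr6:6882516-6882665: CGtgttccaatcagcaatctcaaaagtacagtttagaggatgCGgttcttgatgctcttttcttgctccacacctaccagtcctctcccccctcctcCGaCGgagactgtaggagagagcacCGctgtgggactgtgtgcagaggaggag
Dlx6 chr6:6862816-6862985: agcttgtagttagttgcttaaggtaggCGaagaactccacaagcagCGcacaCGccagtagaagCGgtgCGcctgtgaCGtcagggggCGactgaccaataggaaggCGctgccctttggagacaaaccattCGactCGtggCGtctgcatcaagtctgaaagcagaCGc
Six3 chr17:85612796-85612945: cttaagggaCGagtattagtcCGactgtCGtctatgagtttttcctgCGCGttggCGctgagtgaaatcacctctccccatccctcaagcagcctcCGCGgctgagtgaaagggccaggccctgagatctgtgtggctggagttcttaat
The sites at Dlx1, Dlx5 and Six3 had a peak in replicate 2 only, and the Tbr1 site lies in an intron, 561.5 bp before the second of its annotated starts. The ratio of observed to expected CpG in these sites ran between 0.458 at Dlx5 and 0.986 at Dlx2, and the one at Dlx2 held 17 CG in 150 bases. In the 1001 bp around the first start the 9 genes had a median ratio of 0.719, against 0.537 over all protein-coding genes. The letters CCAAT, searched on both strands in the central 150 bases, were in the sites shown for Dlx2, Dlx6 and Dmrta2, which were the highest promoter sites of replicate 1 at these genes, and also in those shown for Emx1 and Dlx5. Of the 19 shared promoter sites of the 9 genes 6 held them (31.6%), against 21.4% of all 25425 shared promoter sites. CCAAT was searched for after the sequences had been read, and a match is only a string of letters.

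Of the 83 distal sites that both libraries shared, 4 held TAATTA, the core that homeodomain proteins such as Emx and Dlx bind, in their central 150 bases. They are printed because these factors bind such letters and because 3 of the genes carry them, with TAATTA in capitals (mm10, + strand). This choice was made after the values were seen.
Emx2 chr19:59423776-59423925: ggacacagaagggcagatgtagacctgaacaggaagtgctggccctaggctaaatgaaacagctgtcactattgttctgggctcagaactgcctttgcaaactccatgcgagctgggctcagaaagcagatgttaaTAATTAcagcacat
Emx2 chr19:59467056-59467325: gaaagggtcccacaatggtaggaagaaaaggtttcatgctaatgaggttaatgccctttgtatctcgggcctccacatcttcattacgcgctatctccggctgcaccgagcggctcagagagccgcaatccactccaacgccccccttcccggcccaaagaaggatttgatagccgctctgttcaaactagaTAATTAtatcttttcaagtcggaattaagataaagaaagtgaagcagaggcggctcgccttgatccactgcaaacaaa
Dlx6 chr6:6869196-6869365: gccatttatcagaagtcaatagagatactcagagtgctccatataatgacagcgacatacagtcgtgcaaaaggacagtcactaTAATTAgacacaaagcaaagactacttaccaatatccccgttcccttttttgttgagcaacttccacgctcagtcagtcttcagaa
Six3 chr17:85584716-85584925: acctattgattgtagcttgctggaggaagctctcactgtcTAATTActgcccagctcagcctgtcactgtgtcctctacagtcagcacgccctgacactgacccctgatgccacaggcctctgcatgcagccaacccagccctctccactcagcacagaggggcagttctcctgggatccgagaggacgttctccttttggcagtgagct
The Emx2 sites lie 34.5 kb upstream of the start (heights of 37 and 59) and 8.82 kb downstream of it (65 and 72). The site of Dlx6 lies between Dlx6 and Dlx5 (17 and 67), and that of Six3 lies 28.8 kb upstream (29 and 41). TAATTA reads the same on both strands. Its share of 4.82% of the shared distal sites has an exact Clopper-Pearson 95% interval of 1.33% to 11.9%, which covers counting error only. The interval takes the 83 sites as independent, but 29 belong to Emx2, 21 of them in the same hotspot of replicate 2. Over all 55945 shared distal sites, 2.62% held TAATTA.

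At the starts themselves, replicate 2 had a promoter peak at all 9 genes (69.3% of all protein-coding genes had one) and replicate 1 at 7 (66.9%). A shared promoter site was found at 6 of the 9, all but Dlx1, Dlx5 and Six3, against 65.7% of all genes, so the share of open starts was close to the background. The highest promoter peaks of the 9 genes had a median of 51 in replicate 1 and 107 in replicate 2, with genes without a peak set to 0, against 74 and 110 over all genes. In replicate 2 they stood at percentiles of 40.2 to 72.6 among all genes. Among genes with a promoter peak the median was 100 in replicate 1 and 126 in replicate 2, with lower quartiles of 73 and 106. In replicate 2, where all 9 genes had a peak, their median thus lay next to that lower quartile, and only Dmrta2, at 130, passed 126.

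Among the cortical factors, Dmrta2 had the highest promoter peaks of the 9 genes, 109 and 130, both at 1 shared site on chromosome 4 directly upstream of the start. This site lies between the Dmrta2 start and that of the antisense gene Dmrta2os, 240 bp upstream. Noncoding genes also start within 1 kb of Emx2 (Emx2os), Dlx1 (Dlx1as) and Six3 (Gm27801 and Gm28528). Promoter peaks there cannot be given to 1 gene alone. Dmrta2 encodes a DM-domain factor of the medial cortex. Emx2, which shapes the areas of the cortex and the hippocampus, followed with 96 and 121 at a site in its UTR, and had 5 shared promoter sites. The paralog Emx1, a marker of cortical progenitors, reached 44 and 107, the highest peaks of both libraries falling in a coding exon. Tbr1, a T-box factor of deep-layer cortical neurons, reached 51 and 105 and had 7 shared promoter sites spread over its 2 annotated starts. All 4 genes had a shared promoter site, and Emx1 and Tbr1 stood lower in replicate 1, at percentiles of 39.2 and 41.5, than Emx2 and Dmrta2, at 62.9 and 77.0.

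Among the Dlx genes the partners of each pair differed. Dlx2 reached 85 and 121 at the shared site 76.5 bp upstream of its start, and Dlx6 reached 81 and 118 at shared sites on either side of its start. Dlx1 had no promoter peak in replicate 1 and 86 in replicate 2, and Dlx5 had 33 and 99 at separate sites. In replicate 1, then, 1 gene of each pair had a promoter peak above 80 and its neighbour had a low one or none. The nearest shared site of Dlx1 lay 1.59 kb downstream of its start, in its own UTR and within the antisense gene Dlx1as, and was high in both libraries, at 104 and 122. Six3 had no promoter peak in replicate 1 and 8 in replicate 2, spread over several annotated starts. The highest, of 106, was in its coding exon, 799.5 bp downstream of the last of these starts.

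**Figure D1:**
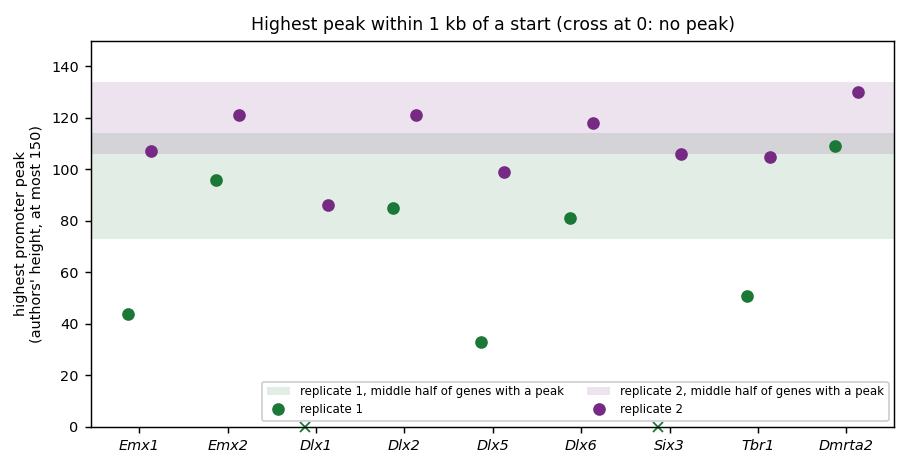
Highest peak within 1 kb of a start (vertical axis, the authors' height) for each of the 9 genes, in replicate 1 (green) and replicate 2 (purple). A cross at 0 marks no peak, and bands span the lower to the upper quartile of all genes with a peak. Dlx1 and Six3 have no peak in replicate 1, and Dlx2, Dlx6, Emx2 and Dmrta2 are the 4 genes above 80 in that library.

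The start hotspots of the 9 genes were wide in replicate 2 and mostly narrow in replicate 1. The widest hotspot within 1 kb of a start measured 7.04 kb at Emx1, 20.1 kb at Emx2, 15.2 kb at Dmrta2 and 13.4 kb at Tbr1 in replicate 2. It measured 7.66 kb at Dlx1, 10.1 kb at Dlx2, 11.4 kb at Dlx5, 8.48 kb at Dlx6 and 6.99 kb at Six3. All 9 were thus over 2 kb, against 21.5% of all genes, and stood at percentiles of 99.6 to 100 among them. The Emx2 hotspot was the widest of the 154173 in its library, that of Dmrta2 was in place 3 and that of Tbr1 in place 6.

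Replicate 1 widths were 584 bp at Emx1, 488 bp at Dmrta2, 734 bp at Tbr1, 270 bp at Dlx2, 269 bp at Dlx6 and 201 bp at Dlx5, and Dlx1 and Six3 had no hotspot within 1 kb. Emx2, at 2997 bp, was the 1 gene of the 9 over 2 kb, against 4.01% of all genes. The medians were 270 bp in replicate 1 and 10127 bp in replicate 2 for the 9 genes, with no hotspot set to 0, against 609 bp and 1233 bp over all genes. Their median thus lay below that of all genes in replicate 1 and far above it in replicate 2. At 8 of the 9, all but Emx2, the hotspot was at least 10 times as wide in replicate 2 as in replicate 1, or replicate 1 had none, against 4.24% of all genes. This 10-fold limit was chosen after the values were seen. The ratio was 6.71 at Emx2, 12.1 at Emx1, 18.3 at Tbr1, between 31.1 and 37.5 at Dmrta2, Dlx6 and Dlx2, and 56.9 at Dlx5.

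**Figure D2:**
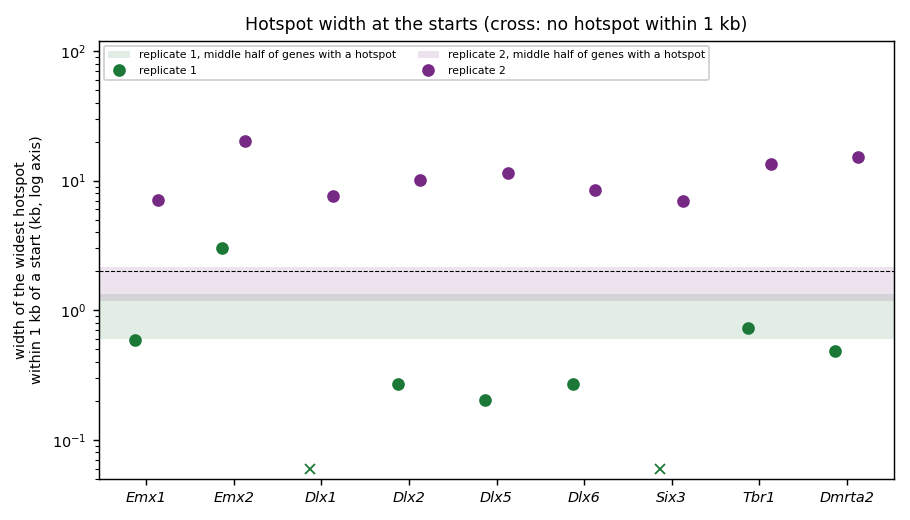
Width of the widest hotspot within 1 kb of a start (vertical axis, kb, log scale) for the 9 genes in replicate 1 (green) and replicate 2 (purple). Crosses mark genes with no hotspot there, bands span the quartiles of all genes with a start hotspot, and the dashed line marks 2 kb. All 9 purple points lie between 6.99 and 20.1 kb, above the line, and only Emx2 does so in replicate 1.

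The wide hotspots ran over the gene bodies. In replicate 2 the start hotspot covered the whole of Emx2, Dmrta2, Dlx1, Dlx2 and Dlx5, 95.3% of Tbr1 and 80.8% of Dlx6. It covered 44.5% of Six3 and 31.2% of Emx1, the longest of the 9 genes. These shares count the widest hotspot alone. At Six3 the widest hotspot lay 353 to 7340 bp from the first annotated start, over the second start but not the first. The replicate 2 hotspot over the first start ran from -6190 to 341 bp and was 6532 bp wide. Six3 held further replicate 2 hotspots, among them 7349 to 10841 bp and 10997 to 12960 bp from the first start. At Emx1 the widest hotspot ended 5307 bp from the start and the next began at 5311 bp. The Emx2 hotspot (chr19:59450569-59470684, mm10) began in the antisense gene Emx2os and ended downstream of Emx2, and held 39 peaks of replicate 2 with a median height of 79. The Dmrta2 hotspot (chr4:109973262-109988419) held 31 with a median of 85, and the Tbr1 hotspot (chr2:61803457-61816887) 23 with a median of 85. Each of the 9 held at least 9 peaks, so they were rows of peaks rather than 1 high one.

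How much of this was marked in replicate 1 differed between genes. Replicate 1 hotspots covered 62.1% of the bases of the Emx2 hotspot of replicate 2, 57.7% at Emx1 and 44.2% at Tbr1, with 35, 13 and 17 peaks of replicate 1 inside. They covered 17.1% at Dlx5, 6.62% at Dlx1, 4.78% at Dlx6, 4.63% at Dlx2 and 3.22% at Dmrta2. At Six3 they covered none of it, and no peak of replicate 1 lay inside. Over all 4271 start hotspots of replicate 2 wider than 2 kb the median cover was 73.4%, with quartiles of 57.1% and 84.9%. Cover was under 20% at 6 of the 9 genes and at 171 of those 4271 hotspots, a limit chosen after the values were seen. Emx1, Emx2 and Tbr1 were therefore the genes at which replicate 1 held the same broad stretch in pieces, while at the Dlx genes, Six3 and Dmrta2 most of it was marked in replicate 2 alone.

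**Figure D3:**
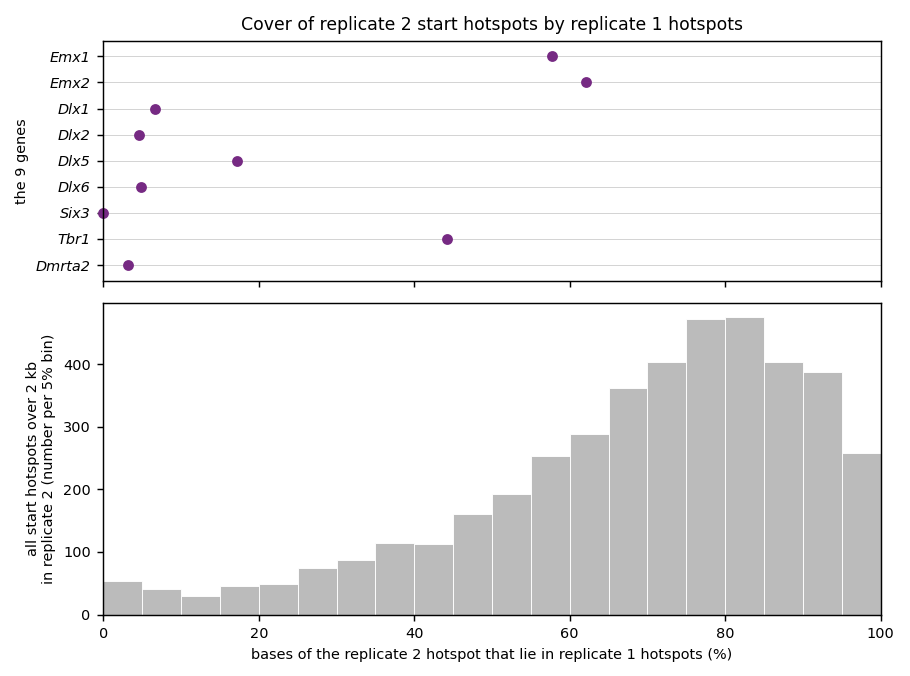
Share of the replicate 2 start hotspot that lay in hotspots of replicate 1 (horizontal axis, % of bases) for the 9 genes (top, 1 point a gene) and for all 4271 start hotspots over 2 kb of replicate 2 (bottom, number per bin of 5%). Dlx1, Dlx2, Dlx5, Dlx6, Six3 and Dmrta2 lie below 20%, while the bulk of all such hotspots lies above 57.1%, their lower quartile.

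Windows of 20 kb to each side of the first start were also measured. Hotspots of replicate 2 covered 86.0% of the window around Dlx6, the most of all protein-coding genes, 62.5% around Dlx1, 59.8% around Six3, 56.7% around Dlx2 and 55.5% around Dlx5. They covered 54.5% around Emx2, 42.0% around Dmrta2, 37.0% around Tbr1 and 23.7% around Emx1. The median over all genes was 6.06%, and percentile 99 was 33.6%, which 8 of the 9 genes passed. In replicate 1 the cover was 32.3% around Emx2, 16.3% around Tbr1, 12.4% around Dlx5, 11.1% around Dlx6 and 10.2% around Emx1, against a median of 3.94%, so Dlx5 and Dlx6, whose start hotspots were little covered in replicate 1, had slightly more marked around them there than Emx1. It was 3.37% around Dlx2, 2.77% around Dlx1, 1.22% around Dmrta2 and 0.297% around Six3, all below that median. Windows of paired Dlx genes overlap, so their values are not independent.

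**Figure D4:**
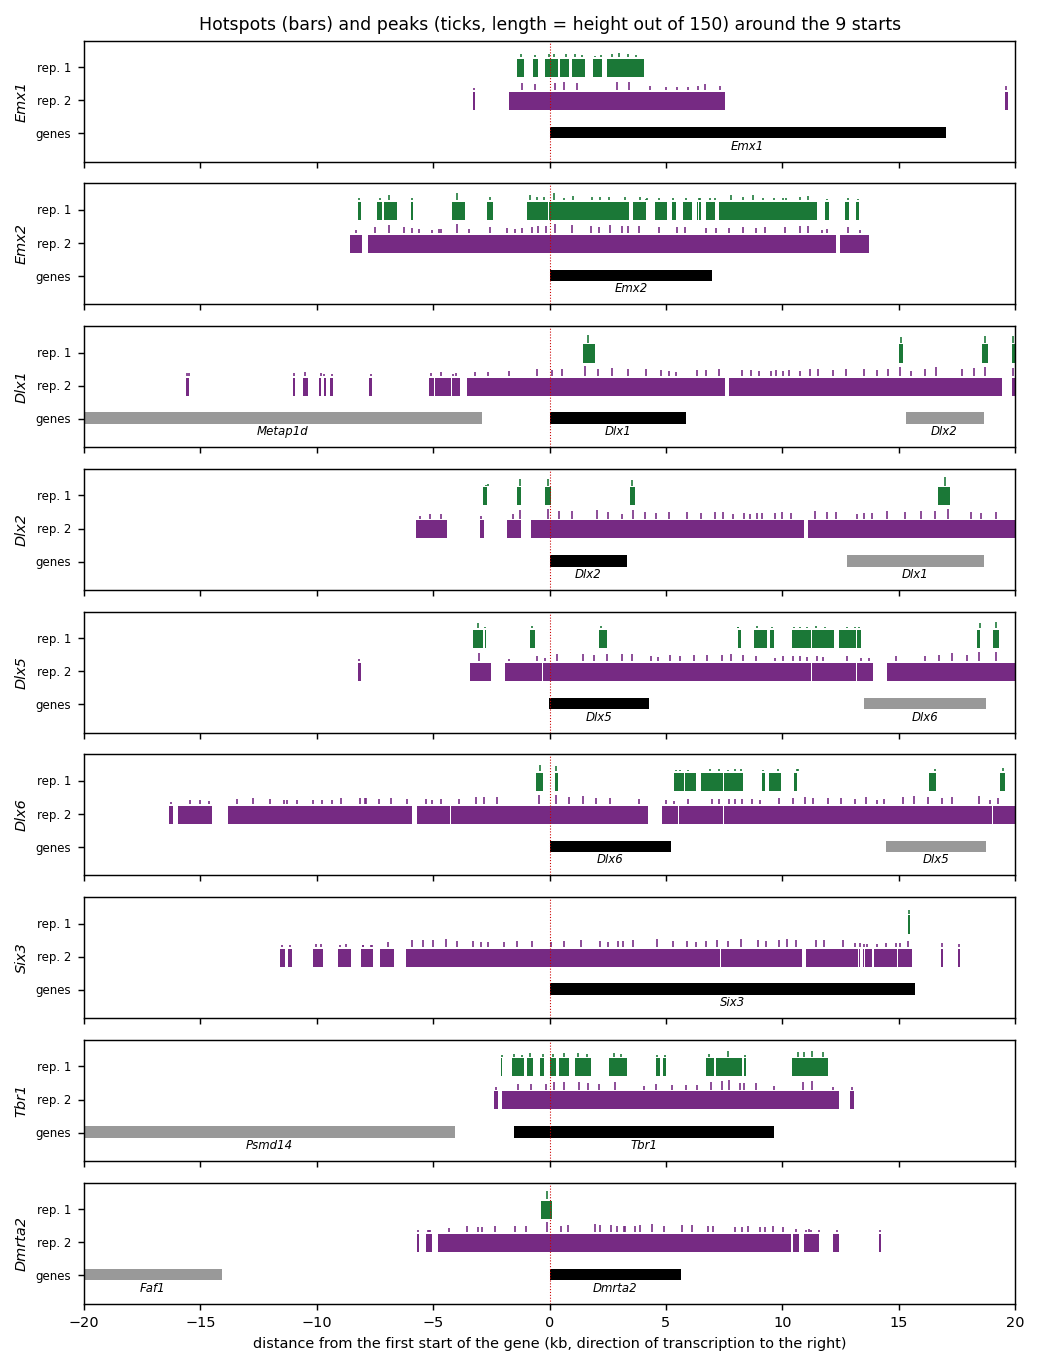
Hotspots (bars) and peaks (ticks above them, length in proportion to height out of 150) of replicate 1 (green) and replicate 2 (purple) around the first start of each gene (dotted line), with protein-coding genes in black or grey. The horizontal axis is the distance from the start in kb, in the direction of transcription. At Emx2, Emx1 and Tbr1 the broad purple bars face several green ones, while around Six3, Dmrta2, Dlx1 and Dlx2 few or no green bars are seen.

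The stretches between the paired Dlx genes hold conserved enhancers known from transgenic mice. Between Dlx1 and Dlx2 (chr2:71533982-71543407, 9.43 kb) hotspots of replicate 2 covered 98.0%, with 19 sites at heights of 58 to 110. Replicate 1 had 1 site there, shared, with a height of 69 against 110 in replicate 2, and its hotspots covered 2.11%. Between Dlx6 and Dlx5 (chr6:6868569-6877804, 9.24 kb) hotspots of replicate 2 covered 99.1%, again with 19 sites, at heights of 46 to 91. There replicate 1 had 11 sites, 9 of them shared, and its hotspots covered 38.3%. The 2 intervals were alike in replicate 2 and differed in replicate 1, where the Dlx6 to Dlx5 interval was marked by many low peaks, of heights 12 to 29. In that interval 6 of the replicate 1 peaks lay in hotspots of the strongest class, which the authors wrote as 100, at heights of 17 to 29, below percentile 5 of such peaks, which was 31. This was looked for after the values were seen. The noncoding gene Dlx6os1 runs through part of this interval and past Dlx6.

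Distal sites numbered 347 in all at the 9 genes, of which 83 were shared, 37 were in replicate 1 only and 227 in replicate 2 only. The last class made up 65.4%, against 41.0% of the 137946 distal sites of all genes, and shared sites made up 23.9%, against 40.6%. Every gene of the 9 had at least 1 shared distal site (64.3% of all genes had). The median was 7 a gene, against 1 over all genes. At 8 of the 9, all but Emx2, more sites were in replicate 2 only than were shared, against 29.4% of all genes. Emx2 had 29 shared sites, 7 in replicate 1 only and 12 in replicate 2 only. When sites went to the nearest gene of any type, Emx2 had 5 shared sites, fewer than Emx1 and Dlx2, with 10 each. Six3 had 5, 3 and 54 in these classes, Dmrta2 7, 4 and 38, and Dlx6 10, 1 and 34. Emx1, with 10, 8 and 11, and Tbr1, with 6, 7 and 12, were more evenly split.

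**Figure D5:**
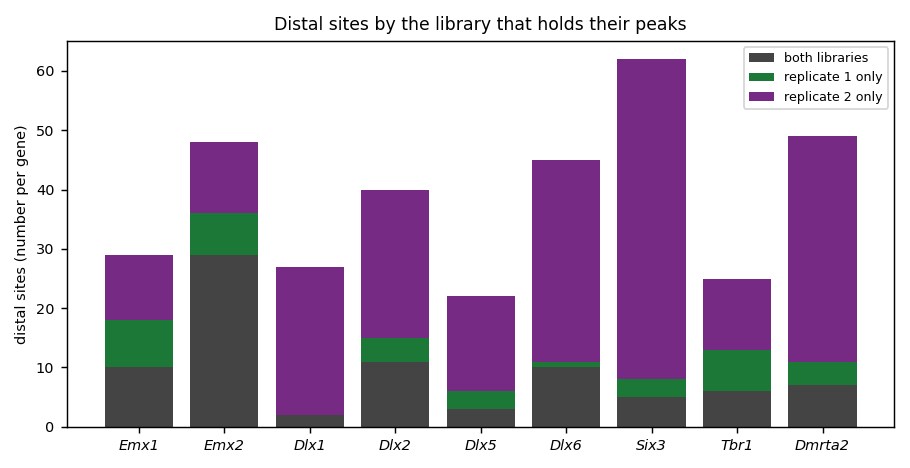
Distal sites of each of the 9 genes (vertical axis, number of sites), split into sites with peaks of both libraries (grey), of replicate 1 only (green) and of replicate 2 only (purple). With sites given to the nearest protein-coding gene, Emx2 has the most shared sites, 29, and Six3 the most sites of replicate 2 only, 54.

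The distal sites of the 9 genes lay near the wide hotspots. Of those in replicate 2 only, 62.6% were inside hotspots of replicate 2 wider than 2 kb, against 8.81% for all genes, and 77.1% lay within 10 kb of the start, against 36.0%. Of the shared ones, 48.2% were inside such hotspots, against 11.0%. Sites in replicate 2 only had a median height of 65, against 39 over all genes, so they were not the low end of the library's list. Sites in replicate 1 only had a median height of 26, against 24. Shared sites had a median of 37 and 76, against 43 and 67 over all genes.

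The highest shared distal sites differed by gene in place and height. Dmrta2 had no shared distal site within 10 kb, and its highest lay 73.0 kb downstream (98 and 115) and 44.4 kb downstream (79 and 115). The highest ones of Dlx2 lay 34.4 kb upstream (82 and 125) and 52.3 kb upstream (98 and 106). Those of Six3 lay 24.9 kb (83 and 116) and 12.8 kb (73 and 104) downstream of its last annotated start. Six3 thus had high shared sites downstream while its starts were unmarked in replicate 1. Those of Emx2 lay 3.98 kb upstream, within Emx2os (96 and 119), and 40.1 kb upstream (95 and 114). Those of Tbr1 were a coding exon 5.87 kb from its second start (71 and 123) and a site 9.46 kb from it (69 and 117). At Emx1 they were an intronic site 2.94 kb downstream (55 and 107) and a site 51.8 kb downstream, in an intron of the neighbouring gene Sfxn5 (63 and 86). Dlx5 had sites 3.04 kb upstream (74 and 109) and 33.3 kb upstream (70 and 69). Dlx6 had none above the median height of replicate 1, its highest being 7.27 kb downstream (29 and 67) and 44.0 kb upstream (31 and 51). Beside the site in its own UTR, Dlx1 had 1 other, in an intron of Metap1d (31 and 47).

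Besides TAATTA, 5 other short motifs were looked for, on either strand, in the central 150 bases of distal sites: TGACAG, which TALE homeodomain proteins bind, CAGCTG and CAGATG, which basic helix-loop-helix proteins bind, ACAAAG, which Sox proteins bind, and ATGCAAA, which POU proteins bind. In the shared sites of the 9 genes TGACAG was in 9.64%, against 12.7% of all shared distal sites, CAGCTG in 12.0%, against 15.5%, CAGATG in 13.3%, against 15.8%, and ACAAAG in 10.8%, against 15.6%. ATGCAAA was in 1 of the 83 sites, against 3.04% of all. All 5 shares lay somewhat below those over all genes. In the sites of replicate 2 only, CAGCTG was in 14 of 227 (6.17%), against 15.4% of all such sites, and ATGCAAA in 11 (4.85%), against 2.65%. There TGACAG was in 7.93%, against 14.4%, ACAAAG in 10.1%, against 14.2%, CAGATG in 12.8%, against 16.7%, and TAATTA in 3.52%, against 2.93%. Many of these sites are neighbours inside the same hotspots and do not count as independent.

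Other genes with known regional use were set beside the 9. The list was drawn up with earlier results of these data known. Of 27 other forebrain genes, 24 had a shared promoter site and 23 had a start hotspot over 2 kb in replicate 2, 1 of them also in replicate 1, with median widths of 431 bp and 5372 bp. The 10-fold gap was found at 14 of the 27. Of the distal sites of these 27 genes, 56.1% were in replicate 2 only, against 65.4% at the 9 genes and 41.0% over all genes. Their median was 8 shared distal sites a gene, against 7 at the 9 genes and 1 over all genes. Over all protein-coding genes, 65.7% had a shared promoter site and 4.24% had the gap. A start hotspot over 2 kb was found at 4.01% of them in replicate 1 and 21.5% in replicate 2. Gsx2, Neurod6 and Vax1 had no shared promoter site, and of these Vax1, a gene of the ventral forebrain and optic stalk, had no start hotspot in replicate 1 and 1 of 9353 bp in replicate 2. High promoter peaks were found at Bcl11b (116 and 133), for a factor of cortical projection neurons, and at Lhx2 (114 and 128).

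Genes used in the hindbrain itself also showed wide hotspots in replicate 2. Of 20 hindbrain genes, 13 had a shared promoter site (65.7% of all genes had one). A start hotspot over 2 kb was found at 18 in replicate 2 (21.5% of all genes) and at none in replicate 1 (4.01%). The median widths were 462 bp and 3569.5 bp. The 10-fold gap was found at 11 of the 20 (4.24% of all genes). Of their distal sites 57.7% were in replicate 2 only (41.0% over all genes), and the median was 8.5 shared distal sites a gene. High promoter peaks were found at Nkx6-1 (118 and 134) and En2 (110 and 121). Those without a shared promoter site were Hoxa2, Hoxb1, Hoxb2, Hoxa3, Hoxb3, Phox2a and Lbx1, and Hoxa3 had no promoter peak in either library. Of the 12 forebrain markers among the 27 genes, 10 had a shared promoter site. The share of these hindbrain genes was thus near that of all genes and not above that of the forebrain markers. Both counts depend on which genes were listed, and most of the hindbrain genes without a shared promoter site are Hox genes. Of 10 marker genes of cartilage and branchial arch mesenchyme, tissue that also uses Dlx genes, 8 had a shared promoter site (65.7% of all genes). A start hotspot over 2 kb in replicate 2 was found at 9 (21.5% of all genes). The part of that tissue in the Dlx values was not tested. Distal sites in replicate 2 only made up 49.2% at these 10 genes and 65.9% at the 12 forebrain markers. The medians were 14.5 and 4.5 shared distal sites a gene.

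By 6 percentiles, those of promoter height, start hotspot width and number of distal sites with a peak, each in both libraries, the genes most like the median of the 9 were Gata4, Gdf6, Lmx1a, 4930447C04Rik and Hand2. The summed absolute difference in percentile points was 6.87 at Gata4 and 12.4 at Hand2. At 4930447C04Rik the promoter peaks (44 and 99) and the replicate 2 start hotspot (4934 bp) had the same values as at Six6. Six6, of the list of other forebrain genes, lies on the same chromosome, so the 2 genes may share these features. Gata4, for a factor of heart and endoderm, had promoter peaks of 62 and 108 and start hotspots of 237 bp and 6044 bp. Lmx1a, for a factor of the roof plate, had 51 and 112, with 134 bp and 6378 bp.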

How the data were processed

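DNase-seq peaks and hotspots of 2 libraries were used as deposited, called by the authors in each replicate on build mm10, per the text beside the files. Per the series title a later record replaced these files, and it was not used here. The aligner, callers, versions, filters and depth, not given in the sources used here, could change every value. A deposited peak has a height as its signal value, and its scaling is likewise not given. The deposited hotspots carry a −log10 false discovery rate and the authors' score, the same value in steps, neither of which was compared between libraries. Coordinates were made 1-based, and peaks outside chromosomes 1 to 19, X and Y and repeated entries (32 and 60) were left out. Peaks overlapping by 1 bp were merged to 231068 sites, 97657 of them shared, and given by their centre to the nearest of 41438 starts of 21851 protein-coding genes (basic set, GENCODE M21). Sequence came from GRCm38 patch p6.

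The 9 genes, gene lists and motifs were chosen with earlier results of these data known. Named were the 9 genes, their highest promoter peaks and 2 highest shared distal sites by mean rank, list genes without a shared promoter site, the 3 highest of the 2 larger lists and the 5 genes most like the median of the 9. Some genes that meet this rule are not reported here. Limits named as chosen after the values were seen lie outside this rule. Counts stand beside those of all genes, with no test. Checked on simulated data for 47 genes far from the starts of others, the counting recovered promoter sites, distal counts and widths. All simulated peaks were in both libraries, so paired genes and sites of 1 library only were not checked. Alternatives varied windows, overlap, height, limits, starts and libraries. Tools were pysam 0.24.0, pandas 2.3.3, numpy 2.4.6, matplotlib 3.10.9 and scipy 1.17.1 under Python 3.11.15.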

Additional observations from a re-analysis of the deposited data

How the results depend on the processing

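The 6 genes with a shared promoter site became 7 with a promoter window of 2500 bp or the starts of all protein-coding transcripts, both of which take in the Dlx1 site in its UTR, and counted by 1 library alone they were 7 and 9. The 83 shared distal sites of the 9 genes numbered 43 with only peaks above their library's median height (0 at Dlx6, 13 at Emx2), and also 43 with the nearest gene of any type, as neighbouring noncoding genes then take sites (5 left at Emx2, which then no longer had the most, and 0 at Dlx6). With a limit of 50 kb, Dmrta2 had 3 in place of 7 and Dlx2 3 in place of 11, and with a promoter window of 500 bp Tbr1 had 10 in place of 6. Without 1 library, the distal sites of the other alone numbered 121 in replicate 1 and 313 in replicate 2, the median start width was 270 bp and 10127 bp, and the TAATTA share, a check added after the data were seen, was 5% in replicate 1 and 3.87% in replicate 2. The other settings moved the median width to between 0 and 488 bp in replicate 1 and between 10127 and 14473 bp in replicate 2, so the gap between the libraries remained. No paired analysis was possible because the series has only 1 group. The libraries differ in list length and in wide hotspots, depth is unknown, and 2 libraries of 1 group cannot tell a difference between embryos from one between libraries.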

Other observations

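Of the 26 hotspots of replicate 2 wider than 10 kb, a limit chosen after the values were seen, 25 held a protein-coding start and 5 held a start of the 9 genes (Emx2, Dmrta2, Tbr1, Dlx5 and Dlx2). Replicate 1 had no hotspot of that width. Foxa2, for a factor of floor plate and endoderm, had the widest of the others, 15.7 kb, of which replicate 1 hotspots covered 27.5%. Gata2 and Gata3, for zinc finger factors, had 13.2 kb with a cover of 2.78% and 14.3 kb with a cover of 10.2%. At Foxf1, a gene of visceral mesenchyme, the hotspot spanned 13.2 kb with a cover of 2.17%, and at Tbx15, for a T-box factor, 11.6 kb with a cover of 2.37%. At the hindbrain genes Nkx6-1, Lmx1b, Tlx3 and Lbx1 they spanned 12.6, 11.5, 12.1 and 12.4 kb with covers of 47.4%, 26.9%, 12.8% and 2.12%. Cover was 62.8% at Ebf2, 57.2% at Pax3, 51.6% at Gad1, 51.1% at Sox14, 47.5% at Osr2 and 42.1% at Il3ra, and was highest at Tnrc18, where it came to 94.5% of 13.5 kb. The 1 without a protein-coding start lay on chromosome 13 (chr13:40701023-40712840, mm10), was 11.8 kb wide and held no base of a replicate 1 hotspot.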
